A study of Drosophila melanogaster with 6 samples.

Results

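In the midguts of *Apc1* mutant flies, 49 of the 12998 named genes had a probe set with low array values in wild type and higher ones in mutants: each was selected on the array values of that probe set, below 4 on the log2 scale on all 3 wild-type arrays and above 4.5 on all 3 mutant arrays. RNA from whole midguts of 7-day-old adult females was hybridized to Affymetrix Drosophila expression arrays, 3 arrays for wild type and 3 for homozygous *Apc1Q8*, a null allele carried by the whole animal. The control strain is called w1118 in the deposited description and Canton S in the methods, so that the *Apc1* genotype and the rest of the genetic background cannot be told apart. Each array took pooled midguts. The oligonucleotides directed at a transcript form its probe set, whose value is the RMA summary of their signals in log2 units. Nothing states that the samples came from separate cultures, so p-values measure the spread between these samples. In such bulk tissue, more cells of a type and more RNA per cell cannot be told apart. Of the 14438 probe sets with a gene name, 66 met the limits, or 0.457%. The 16 named for antimicrobial peptides, Turandot factors, peptidoglycan recognition proteins or cytochrome P450 enzymes, or listed as *CG1304*, *CG17191* or *CG11893*, were left out, and the probe set with the highest mean was kept for each gene. That probe set also stood for the gene in the tests across all genes in 44 of the 49, while in 5 a brighter probe set of the gene did. The limits turned round, from above 4.5 to below 4, were met by 71 named probe sets, or 0.492%, in 70 entries. None of these was left out by name. Since the array values chose the 49 genes, their differences between genotypes are given as a description, without a test.

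The adult fly midgut is a tube of epithelium renewed by intestinal stem cells, whose daughters become absorptive enterocytes or hormone-secreting enteroendocrine cells. Its regions differ in the enzymes, transporters and immune factors they make, and the acid-secreting copper cell region lies in the middle. *Apc1* is a component of the complex that marks the Wingless transducer Armadillo for destruction, and its loss activates Wingless signalling.

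Low values on these arrays are not the same as silence. Array medians ran from 2.54 to 2.60 over the 6 arrays and upper quartiles from 5.30 to 5.46, so a value of 4 stands above that of most probe sets. Only 7 of the 49 genes lay below the array median on all 3 wild-type arrays, 33 lay above it on all 3, and 9 lay on both sides. On the mutant arrays, 17 exceeded the upper quartile on all 3 arrays and 20 on none. The genes are therefore described as low in wild type. Detection calls were not used here, and RMA values this low do not separate a weak transcript from background. For the 7 genes below the median (*CG44014*, *LysX*, *Nepl18*, *Erasp*, *ppk12*, *CG6738* and *CG30148*), the probe set that met the limits thus gives only an upper bound on the wild-type signal it read. The differences given for them are differences between array values, not the size of a change in RNA. For *CG44014* this bound does not extend to the gene. Its other probe sets averaged 9.81 and 10.01 in wild type. Over the 49 genes, the wild-type mean ran from 1.39 to 3.88 with a median of 3.37, and the mutant mean from 4.54 to 9.91 with a median of 5.27. The difference of the means ran from 0.66 to 7.63, with a median of 1.93, against a median of 0.01 over all entries. It exceeded 2-fold in 46 genes, 4-fold in 22 and 16-fold in 6, and the 3 genes short of 2-fold were *CG2310*, *CG4953* and *Bug22*.

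**Figure D1:**
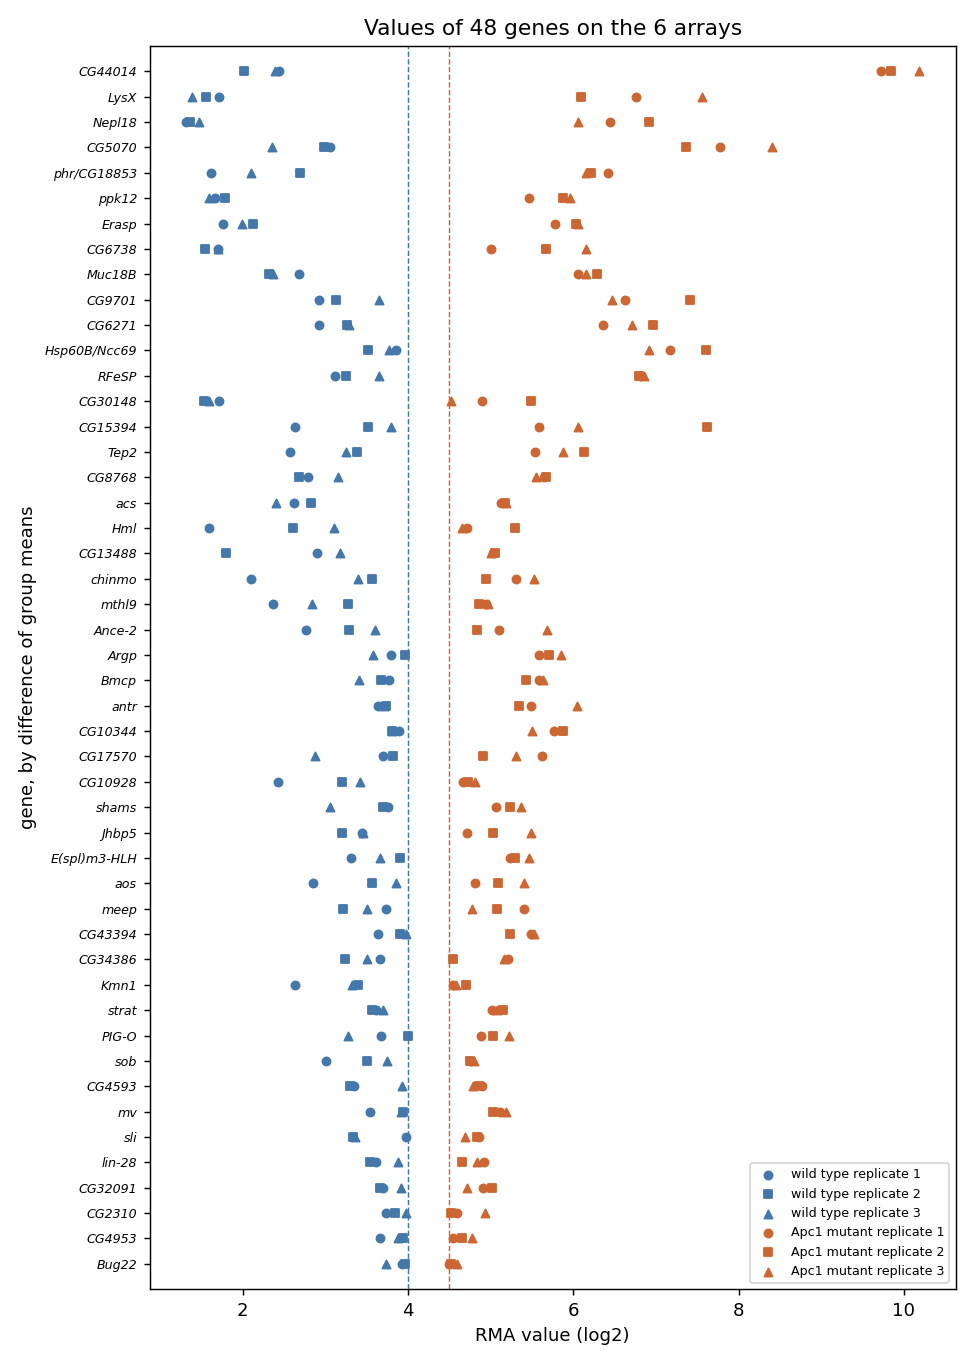
RMA value on the log2 scale (horizontal axis) of each of 48 of the 49 genes (vertical axis, ordered by the difference of the group means), with 1 point per array, wild type in blue and *Apc1* mutants in orange. The dashed lines mark the limits of 4 and 4.5 that chose the genes. *CG44014* at the top lies 7.63 apart and *Bug22* at the bottom 0.66 apart.

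The limits cut through a run of values. Just inside them, the highest wild-type value rounded up to 4 for *PIG-O* and was 3.98 for *sli* and for *CG43394*, and the lowest mutant value was 4.503 for *Bug22* and 4.52 for *CG2310* and *CG30148*. Just outside, *CG5883* and *CG34011* each reached 4.02 on a wild-type array and the closest entry 4.01, while the lowest mutant value was 4.49 for *CG42271*, 4.48 for *Egfrap* and 4.47 for *Mgat3*. The gap between the lowest mutant and the highest wild-type array was over 2 in 17 of the 49 genes and under 1 in 11.

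The gene with the widest separation was *CG44014*, listed as *CG14872* in the deposited table. The probe set that met the limits read 2.44, 2.02 and 2.39 in wild type and 9.72, 9.84 and 10.18 in mutants. Its array means were 7.63 apart. On the other probe sets of the gene, described below, the difference was 1.6.

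Of the 49 genes, 7 were grouped by family as peptidases, other hydrolases or a mucin, and their differences ran from 1.98 to 5.25. Where their proteins work was not measured. *LysX*, a lysozyme that cleaves bacterial cell wall, had values of 1.72, 1.56 and 1.39 in wild type and of 6.76, 6.09 and 7.56 in mutants, a difference of 5.25. *Nepl18*, of the neprilysin-like metallopeptidases, was at 1.32, 1.37 and 1.47 against 6.45, 6.91 and 6.06, a difference of 5.09. Both were below the array median in wild type and above the upper quartile of every mutant array. *Erasp*, a trypsin-like serine protease, read 1.76, 2.13 and 1.99 in wild type and 5.78, 6.03 and 6.06 in mutants. For the mucin *Muc18B*, the kind of glycoprotein that coats epithelia, the values were 2.68, 2.32 and 2.37 against 6.06, 6.29 and 6.16. These 2 genes differed by 4.0 and 3.71, and their mutant arrays lay close together. *CG9701*, a glycoside hydrolase, went from 2.93, 3.13 and 3.65 to 6.62, 7.41 and 6.47. *CG6271*, a lipase of the pancreatic type, went from 2.93, 3.26 and 3.29 to 6.36, 6.96 and 6.71. Unlike the genes before them, both exceeded the array median in all 3 wild-type samples. The last of the group was *Ance-2*, a relative of angiotensin-converting enzyme, at 2.77, 3.29 and 3.60 in wild type and 5.10, 4.84 and 5.68 in mutants, 1.98 apart.

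Transport proteins were named by 4 of the entries, 1 of them shared with another gene. *ppk12*, a pickpocket channel of the DEG/ENaC family of sodium channels, read 1.67, 1.79 and 1.59 against 5.46, 5.87 and 5.96 in mutants, a difference of 4.08. An entry named for both the chaperonin *Hsp60B* and the sodium-potassium-chloride cotransporter *Ncc69* went from 3.85, 3.52 and 3.77 to 7.17, 7.60 and 6.91. Another probe set, named for *Hsp60B* alone, was at 1.39 in wild type and 1.38 in mutants. Which of the 2 transcripts the first probe set read cannot be told from its value, and *Ncc69* has no probe set of its own. *acs* (arcus), an amino acid transporter gene, had 2.62, 2.83 and 2.40 in wild type and an even 5.12, 5.18 and 5.19 in mutants. *Bmcp*, a mitochondrial carrier of the uncoupling protein family, had the smallest difference of the 4, 1.93, with values of 3.77, 3.67 and 3.41 against 5.59, 5.43 and 5.63.

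The immune genes *Tep2* and *Hml* differed by 2.78 and 2.46. *Tep2*, a secreted thioester protein related to complement factors, read 2.57, 3.38 and 3.25 in wild type and 5.54, 6.13 and 5.88 in mutants. *Hml*, or haemolectin, is a clotting protein made by haemocytes, the blood cells of the fly, and read 1.59, 2.61 and 3.11 against 4.72, 5.29 and 4.66. Wild type replicate 1 was the lowest array for both.

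Because *Hml* marks blood cells, the other haemocyte genes were set beside it. Of 9 haemocyte genes, the 8 besides *Hml* lay below 4 on every array of both genotypes, among them *eater*, *NimC1*, *Pxn*, *srp*, *lz* and the prophenoloxidase genes *PPO1* and *PPO2*. Their differences ran from -0.91 for *PPO1* to 0.48 for *srp*, and none was called, the call being a limma adjusted p under 0.05 with a change of more than 2-fold. The summed level of these 8 genes was 5.24 to 5.56 on the wild-type arrays and 5.06 to 5.21 on the mutant arrays. With *Hml*, which was chosen for its higher values in mutants, the sums were 5.35 to 5.81 and 5.88 to 6.25, and the median difference of the 9 was -0.17. *Hml* was thus the only gene of the list to pass the limits of 4 and 4.5.

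**Figure D2:**
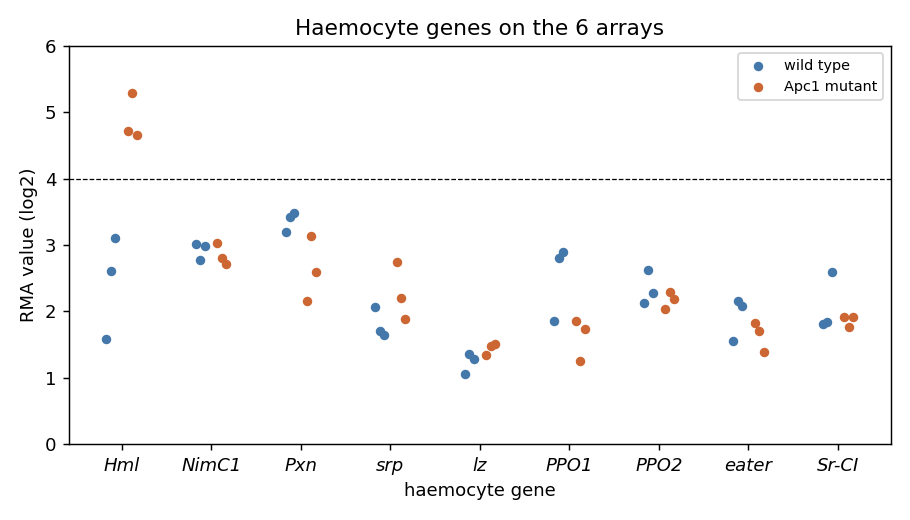
RMA value on the log2 scale (vertical axis) of 9 haemocyte genes (horizontal axis), with 1 point per array, wild type in blue and *Apc1* mutants in orange, and a dashed line at 4. Only *Hml*, at 4.66 to 5.29 in mutants, lies above the line.

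In signalling and gene regulation, 8 genes differed by 1.13 to 2.25, and none of these reached the upper quartile of the array in all mutant samples. *E(spl)m3-HLH*, a bHLH repressor that Notch signalling induces, had 3.31, 3.91 and 3.66 in wild type and 5.24, 5.29 and 5.46 in mutants. *shams*, a xylosyltransferase that modifies the Notch receptor, had 3.76, 3.70 and 3.06 against 5.07, 5.23 and 5.37. *aos* (argos), a secreted antagonist that binds the Egfr ligand Spitz, had 2.85, 3.57 and 3.85 against 4.81, 5.09 and 5.41. The 3 pathway genes were of like size, with differences of 1.70, 1.71 and 1.68. The probe set named for both *CG33464* and *sli*, the ligand of the Robo receptors, was 1.24 higher, with 3.98, 3.33 and 3.36 against 4.86, 4.84 and 4.69. *mthl9*, a receptor of the Methuselah family, was 2.10 higher, with 2.37, 3.28 and 2.84 against 4.95, 4.86 and 4.97.

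Among the regulators, *chinmo*, a BTB zinc-finger protein that sets the temporal identity of neurons, read 2.10, 3.56 and 3.40 in wild type and 5.31, 4.95 and 5.53 in mutants. *lin-28*, an RNA-binding protein that blocks maturation of the let-7 microRNA, read 3.61, 3.54 and 3.88 against 4.92, 4.66 and 4.83. *sob*, a zinc-finger protein of the Odd-skipped family, read 3.01, 3.5 and 3.75 against 4.75, 4.75 and 4.80. Their differences were 2.25, 1.13 and 1.35, and *sob* varied less over the mutant arrays than over the wild-type arrays.

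Genes of DNA repair by light and of general cell machinery formed a further group, of which 7 are described. *phr*, a photolyase that repairs lesions left by ultraviolet light, shares its probe set with *CG18853* and stood at 1.62, 2.69 and 2.10 in wild type and 6.42, 6.22 and 6.16 in mutants, 4.13 higher. *RFeSP*, the Rieske iron-sulfur subunit of respiratory complex III, stood at 3.12, 3.25 and 3.65 against 6.81, 6.79 and 6.86, 3.48 higher. Smaller differences were found for *Kmn1* of the kinetochore (1.49), *strat*, a homologue of the exchange factor Mss4 (1.46), *PIG-O* of GPI anchor synthesis (1.39), *mv*, a homologue of the lysosomal trafficking regulator LYST (1.31), and the ciliary protein *Bug22* (0.66).

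Among the 20 genes without a role given here, *CG5070* had mutant values of 7.77, 7.36 and 8.40 against 3.06, 2.98 and 2.36 in wild type. *CG6738* went from 1.70, 1.55 and 1.70 to 5.01, 5.67 and 6.16, and *CG30148* from 1.72, 1.53 and 1.59 to 4.90, 5.49 and 4.52. *CG15394* had the widest spread of all in mutants, with 5.59, 7.62 and 6.06 against 2.64, 3.52 and 3.79. At the other end, *CG13488* was the most even in mutants, at 5.03, 5.05 and 5.0, although its wild-type arrays read 2.90, 1.80 and 3.18. *CG8768* was 2.74 higher, and the other 13 of this kind were between 0.83 and 1.94 higher. In order of their difference these were *Argp*, *antr*, *CG10344*, *CG17570*, *CG10928*, *Jhbp5*, *meep*, *CG43394*, *CG34386*, *CG4593*, *CG32091*, *CG2310* and *CG4953*. Of them, *antr* encodes a cysteine-rich secretory protein and read 3.64, 3.74 and 3.71 against 5.49, 5.34 and 6.04, and *meep* read 3.74, 3.22 and 3.5 against 5.41, 5.08 and 4.77.

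The spread between mutant arrays is given as a description, since the limit of 4.5 on each mutant array bounds it in genes whose mean lies near that limit. The SD over the mutant arrays had a median of 0.17 over the 49 genes, between 0.03 and 1.06, beside a median of 0.13 in the 5268 entries of like mutant mean, which did not have to meet the limits. Without *Apc1* mutant replicate 3, the median over the genes chosen was 0.113. *Apc1* mutant replicate 3 was the highest of the mutant arrays in 26 of the 49 genes (53.1%, against 30.4% of the like entries), replicate 2 in 16 and replicate 1 in 7 (14.3%, against 33.8%). Wild type replicate 1 was the lowest of its group in 23 of the 49 (46.9%, against 34.9% of the like entries), as seen in *Hml*, *chinmo* and *Tep2*. The like entries were matched on the mutant mean and not on the wild-type mean, which limits this comparison. Arrays of 1 genotype correlated at 0.982 to 0.992 over the entries, and arrays of different genotypes at 0.950 to 0.961.

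For 11 of the 49 genes the array holds further probe sets of the same gene, 13 in all, and these read the genes differently. In 7 of the 11 genes another probe set was at or above 4 on every wild-type array. For these genes, low in wild type is therefore stated only of the probe set that met the limits. The brighter probe set of *CG6271* is shared with *CG6277*, and which transcript it read cannot be told. That of *CG43394* is listed under another name, *CG31607*. On 11 of the 13 the difference was smaller than on the probe set that met the limits, which had been chosen for its values. The difference between probe sets was widest for *CG44014*, whose other probe sets read 10.09, 9.37 and 9.98 against 11.48, 11.21 and 11.55, and 10.31, 9.63 and 10.08 against 11.71, 11.39 and 11.71. Both differed by 1.60, beside 7.63 on the chosen probe set. The other probe set of *RFeSP* read 5.83, 5.86 and 5.87 in wild type and 5.76, 5.41 and 5.60 in mutants, 0.27 lower rather than 3.48 higher. For *chinmo*, a further probe set read 4.69, 4.46 and 5.14 against 6.73, 6.51 and 6.96, and the remaining one averaged 1.52 and 1.42. A probe set shared by *CG6271* and *CG6277* went from 8.45 to 10.59, and those of *CG34386* from 5.68 to 7.92, of *CG43394* from 6.32 to 7.13 and of *Bmcp* from 5.94 to 6.42. For *CG10344* alone, the further probe set also met the limits, with 2.98, 3.07 and 2.03 against 5.10, 5.14 and 4.95. The *phr* probe set without *CG18853* went from 3.29 to 4.04, and the second of *mv*, listed under the name *CG5691*, from 1.99 to 2.56. The remaining 38 genes have 1 probe set each, so for these the reading of another probe set was not available.

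**Figure D3:**
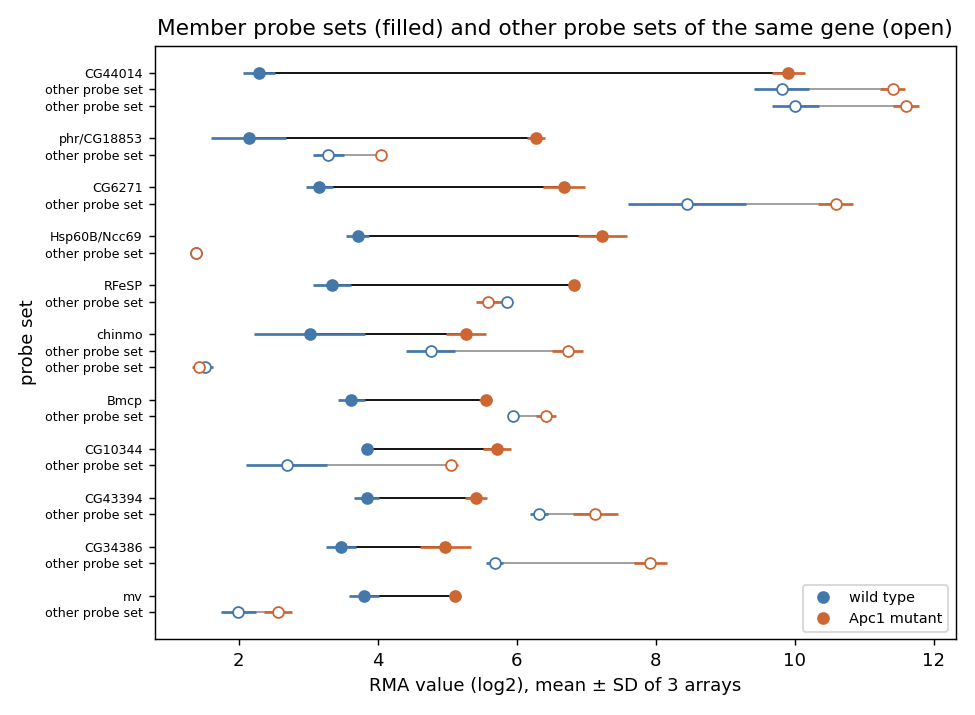
RMA value on the log2 scale (horizontal axis) as mean ± SD of 3 arrays for the 11 genes with further probe sets (vertical axis), wild type in blue and *Apc1* mutants in orange. Filled points are the probe sets that met the limits and open points the other probe sets, and *CG44014* at the top shows 2.29 and 9.91 on the chosen probe set above 2 probe sets whose means are 1.60 apart.

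Among the relatives of the genes, calls in the 2 directions were about equal in number. Over 17 families, complexes and clusters there were 130 relatives, of which 8 (6.15%, *CG17191* among them) were called higher and 9 (6.92%) lower in mutants, while over all 12998 entries 3.21% were called higher and 3.03% lower. The median difference of the relatives was 0.01, and 79 of them were below 4 on all 6 arrays. Among 26 other pickpocket channels none was called higher, and *ppk16* and *ppk18* were lower by 1.09 and 1.85 (limma adjusted p = 0.0245 and 0.0126). Of 25 other neprilysins, only *Nepl12* was called higher, by 1.51 from 2.12 to 3.62 (limma adjusted p = 0.0039). Of the lysozymes with an entry of their own, *LysP* fell from 8.13 ± 0.95 to 5.34 ± 0.69 (SD, n = 3 each, limma adjusted p = 0.0145), the opposite of *LysX*, and *LysS* was at 3.37 and 2.68 and was not called. The 4 other thioester proteins differed by 0.11 to 0.16, and the 6 other E(spl) bHLH genes lay below 4 on all arrays. The same held for the 7 other kinetochore proteins. None of these 17 genes was called. In respiratory complex III, *UQCR-11L* was called lower (limma adjusted p = 0.045) and the 8 other subunits were not called.

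Most of the calls among relatives fell in the receptors, the zinc-finger family, the lipases and the mucins. Among the Methuselah receptors, *mthl15*, *mth* and *mthl10* were called higher by 1.18, 1.14 and 1.06, and *mthl8* fell by 3.61 (limma adjusted p = 0.0051, 0.0044, 0.00772 and 0.000438). In the Odd-skipped family, *drm* was 1.48 higher (limma adjusted p = 0.000656) along with *sob*, while *odd* and *bowl* were not called, with differences of 0.15 and -0.68. The lipase cluster around *CG6271* was divided. *CG6283* went from 9.05 to 12.56 and *CG17191*, which met the limits but was left out by name, from 1.64 to 6.83, whereas *CG6296* fell by 7.27, *CG6295* by 8.76 and *CG17192* by 8.97 (limma adjusted p of at most 0.000183 for each of the 4 other than *CG17191*). The 12 other mucins listed gave 1 gene in each direction, *Muc55B* higher by 1.37 and *Muc68Ca* lower by 1.95 (limma adjusted p = 0.00176 and 0.0385). *Mur18B*, next to *Muc18B* in the genome, was not on that list and was called lower by 1.64 (limma adjusted p = 0.0355).

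**Figure D4:**
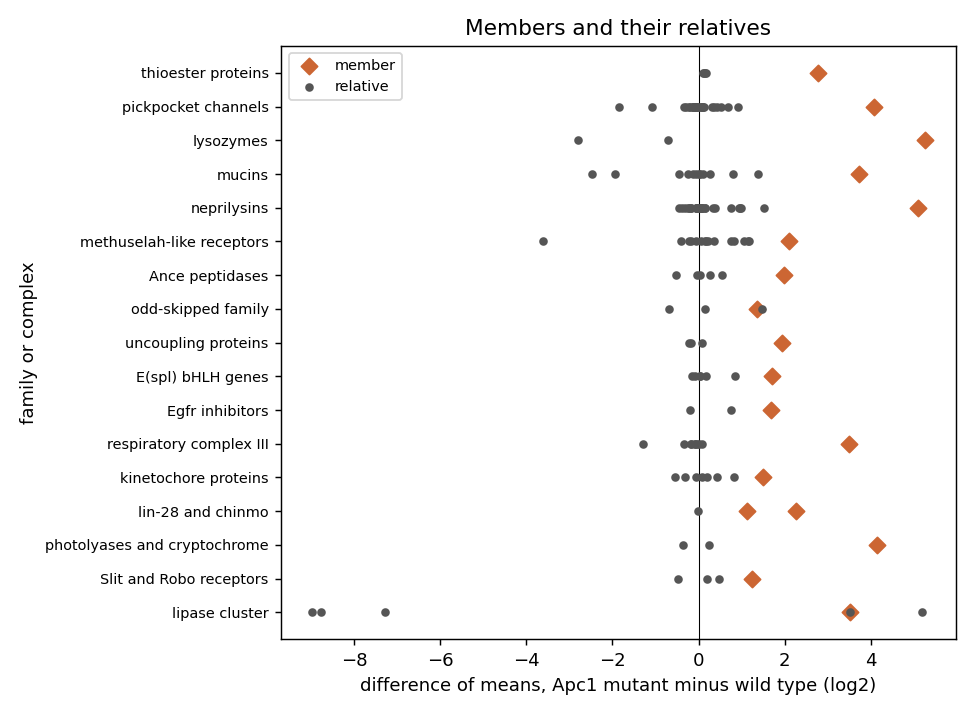
Difference of the group means, mutants minus wild type, in log2 units (horizontal axis), for the chosen genes (orange diamonds) and their relatives (grey points) in 17 families, complexes or clusters (vertical axis). Most relatives lie near 0, with a median of 0.01, and the lipase cluster at the bottom spans both directions.

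The place of a gene in the genome was not used to choose it. Of the 47 genes that could be placed on a chromosome arm, 12 (25.5%) lay on 2L, 11 (23.4%) on 2R, 11 (23.4%) on 3L, 9 (19.1%) on 3R and 4 (8.51%) on X, beside 18.4%, 20.2%, 19.9%, 24.9% and 16.1% of all placed entries. The share on 3R lay on the other side of that of all entries with limits of 3.5 and 5 (28.6%) and with a single limit of 4 (27.0%). Of the 70 entries of the limits turned round, 30 (42.9%) lay on 3R, the arm that carries *Apc1*. None of these 70 was left out by name, whereas the 49 genes remained after 16 probe sets were left out. The 2 shares on 3R therefore come from sets chosen in unlike ways.

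**Figure D5:**
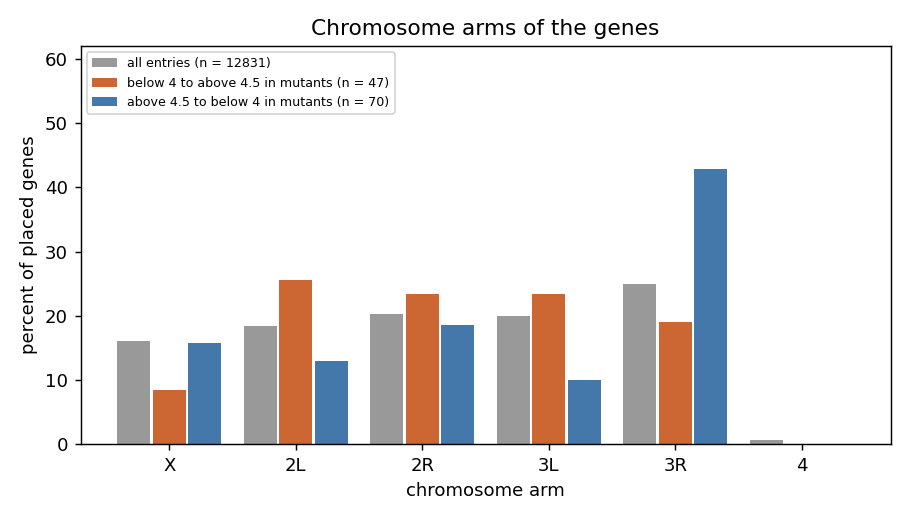
Percent of placed genes (vertical axis) on each chromosome arm (horizontal axis), for all entries (grey), the genes that met the limits (orange) and those that met the limits turned round (blue). Names were left out for the orange bars but not for the blue bars. On 3R the orange bar is 19.1% and the blue bar 42.9%.

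On 3R, *Nepl18* was the closest to *Apc1* itself, 5 places away in the order of the measured genes, and the next was *CG2310*, 66 places away. *Apc1* read 6.36 ± 0.41 in wild type and 6.49 ± 0.41 in mutants (SD, n = 3 each, limma adjusted p = 0.782), so its RNA gave no check of the genotype labels. *Nepl18* lies within a row of 5 neprilysin-like genes. *Nepl17* was at 1.06 in both genotypes, *Nepl19* at 1.77 and 2.11, *Nepl20* at 1.71 and 2.11 and *Nepl21* at 3.44 and 3.59, and none of these 4 was called. Of the 101 genes within 50 places of *Apc1*, itself included, 6 (5.94%) were called higher and 3 (2.97%) lower, beside 3.21% and 3.03% of all entries. The 6 include *Nepl18*, which its higher values had chosen, and without it 5 of 100 genes were called higher.

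Some of the 49 genes lay near each other. *RFeSP* and *chinmo* were adjacent in the order of measured genes, as were *CG10344* and *ppk12*, *LysX* and *meep* were 3 places apart, and *mv* and *acs* 4. The nearest measured genes on each side, 88 in all, had a median difference of 0.06. Of these, 8 (9.09%) were called higher and 3 were called lower, beside 3.21% and 3.03% of all entries. The share called higher was 5.77% for the genes chosen without *Apc1* mutant replicate 1, and 5.41% when 5 neighbours were taken on each side. *CG6283* next to *CG6271*, *drm* next to *sob* and *mthl10* next to *mthl9* were both neighbours and relatives of the chosen gene. *lin-28* lay between *Blimp-1*, higher by 1.19, and *sif*, higher by 1.54 (limma adjusted p = 0.00269 and 0.0269). The other neighbours called higher were *CG9119* beside *meep* (1.46), *IKKbeta* beside *Jhbp5* (1.21) and *CG10912* beside *CG34386* (1.04), with limma adjusted p = 0.0172, 0.00395 and 0.0143. Called lower were *CG17571* beside *CG17570* (-3.04), *CG8745* beside *Hml* (-1.30) and *Mur18B* beside *Muc18B* (-1.64), with limma adjusted p = 0.0249, 0.0212 and 0.0355.

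Markers of other cells in the dissected tissue also moved, and their part in the values of the 49 genes was not tested. The counts of calls below stand beside 3.21% of all entries called higher and 3.03% called lower. Of 10 enteroendocrine genes, 5 were called higher (*pros*, *AstA*, *AstC*, *CCHa1* and *Dh31*, by 1.11 to 1.76) and *NPF* lower, and the summed level of the list was 10.30 to 10.46 in wild type and 11.13 to 11.43 in mutants. Of 5 progenitor genes, *esg* was called higher, by 1.10 (summed level 6.50 to 6.64 and 7.22 to 7.25). In the copper cell region, *lab* and *Vha100-4* of 4 genes fell, by 4.46 and 6.63 (summed level 9.32 to 10.24 and 8.64 to 9.41). Of 8 enterocyte genes 3 were called lower, *betaTry*, *Jon65Aiv* and *mag* (summed level 14.06 to 14.34 and 13.09 to 13.26). Of 7 fat body genes none was called, and 5 were below 4 on all arrays. The testis, male accessory gland and photoreceptor lists, with 14, 10 and 9 genes, lay below 4 on all arrays throughout. None of the 19 ovary genes was called, and their summed level was 9.90 to 11.62 in wild type and 7.12 to 9.49 in mutants. Some varied widely within wild type and were highest on replicate 2, as *osk* (3.24, 6.33 and 1.36) and *nanos* (3.75, 5.52 and 1.69), while 12 of the 19 lay below 4 on all arrays. Of the other lists, Malpighian tubules had 2 of 6 genes lower, visceral muscle 1 of 11 lower, hindgut 1 of 5 higher, and neurons, trachea and salivary gland none called. The muscle gene was *Mef2*, at 10.41 in wild type and 4.99 in mutants (limma adjusted p = 5.19e-06). The median difference of the muscle list was 0.06. Of 8 genes listed as Wingless targets, only *fz3* was called higher, by 2.53 (limma adjusted p = 0.000264). *nkd* was 0.99 higher, just short of 2-fold, and *Notum* 0.45 higher (limma adjusted p = 0.0296 and 0.0798). These 3 genes are the Wingless targets that the paper followed in the midgut with reporters. The other 5 on the list, *wg*, *sens*, *Dll*, *vg* and *bi*, lay below 4 on all arrays, so the share called over the list says little about Wingless signalling here. Of 9 genes of Jak/Stat signalling, Egfr ligands and stress signalling, *upd3*, *Socs36E* and *dome* were called higher, by 1.26, 1.53 and 1.13 (limma adjusted p = 0.0146, 0.0264 and 0.014). The Egfr ligands *vn* and *spi* were 0.75 and 0.99 higher, short of 2-fold (limma adjusted p = 0.0418 and 0.0483). *upd1*, *upd2*, *Krn* and *puc* differed by -0.05, -0.02, 0.13 and -0.3 and were not called.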

How the data were processed

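RNA from 6 samples of pooled whole midguts was hybridized to 1 array each. The authors deposited log2 values per probe set, by RMA according to the methods; MAS5 is also named in the submitters' notes, without a role. Columns of the authors' own means, ratios, fold changes and p-values were not used. Probe sets were named through RefSeq accessions, symbols or synonyms (assembly Release 6 plus ISO1 MT); since no build is stated, only gene order and arms were taken. The 12998 entries (1 probe set per gene, the brightest) were compared with limma 3.58.1 in R 4.3.3, with Benjamini-Hochberg adjustment, and called at an adjusted p under 0.05 and more than 2-fold. On simulated data for this comparison, 190 of 200 genes changed by 2 on the log2 scale were called, with 2 false calls among the unchanged rest of the 12998 entries. A summed level is log2 of the sum of the linear values. The genes, lists, limits and tests were chosen with earlier results of these data known, and the families and roles after the values were seen. Named are the 15 largest differences, the 10 highest mutant means, the 5 widest and 5 narrowest mutant ranges, genes on a list or in a family, those near *Apc1*, each other or a limit, and others by role, chosen after their values were seen. Tables were handled in Python 3.11.15 with pandas 2.3.3. Promoter motifs were not searched because no sequences were at hand. The number of arrays limits the precision. The values of 1 of the 49 genes are not reported here.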

Additional observations from a re-analysis of the deposited data

How the results depend on the processing

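Every alternative kept the direction in which the 49 genes were chosen, which the limits fix. Limits of 3.5 and 5 left 14 genes, all among the 49, and 41 entries turned round, whereas a single limit of 4 gave 143 genes, including all 49, and 113 entries turned round. The mean of all probe sets gave 45 genes, centring on array medians 50, and quantile normalization 41, of which 44, 49 and 41 were among the 49. With 1 array left out the count was 52 to 71, since fewer arrays have to meet the limits, and always included the 49. The entries turned round then numbered 75 to 88, the entries called higher 355 to 429, the share on 3R was 18.2% to 24.6%, the share of neighbours called higher 5.77% to 9.09%, and the median SD over mutant arrays 0.113 to 0.217. Its lowest value came without *Apc1* mutant replicate 3. Of 88 alternative values, 83 stayed within 1.5 times the main value for counts and the median SD, or within the Wilson 95% interval of the main value for shares. By that interval the share on 3R of 28.6% (limits of 3.5 and 5) and 27.0% (a single limit of 4) and the share of neighbours of 5.41% (5 on each side) count as near 19.1% and 9.09%, although the 3R shares lie above, and not below, the 24.9% of all entries. The settings added after seeing the data were to choose the brightest probe set of a gene before applying the limits (44 genes) and to keep probe sets of a single gene only (42 genes). With the replicate block 422 entries were called higher instead of 417, and 10.2% of the neighbours instead of 9.09%. The replicate numbers do not pair the samples by design, and the deviations of arrays with the same number correlated at 0.14, 0.20 and 0.02. The alternatives bear on 3 arrays a genotype, on low values near the array median, and on probe sets that may read only part of a gene. The planned promoter motif search was not run.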

Other observations

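A further 6 probe sets without a gene name met the limits of 4 and 4.5 and were not counted among the genes.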
